A study of Drosophila melanogaster with 20 samples.

Results

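The genes described here code for structural proteins of the insect cuticle and belong to the Cpr and Tweedle (Twdl) families. They were chosen as the rows of the count tables whose FlyBase symbol starts with Cpr followed by a digit, or with Twdl, and which held at least 20 counts summed over the 20 small RNA libraries. The rule gave 76 genes, 55 Cpr and 21 Twdl, out of 17263 rows that did not belong to a miRNA. Another 20 rows of these families held fewer counts. The rule used the total over all libraries and no comparison between groups.

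The cuticle is the extracellular layer that epidermal cells and tracheal cells secrete on their apical side. It is built of chitin fibres bound by structural proteins. Most Cpr proteins carry the Rebers and Riddiford consensus, a chitin-binding sequence, and Tweedle proteins form a separate family of cuticle proteins known from insects. In the Drosophila embryo the cuticle of the first larva is laid down late in embryogenesis, after a pulse of the steroid hormone ecdysone, and neurons and glia do not secrete it.

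The study sorted cells of Drosophila melanogaster embryos, fixed with formaldehyde and stained for a nuclear protein, into marker-positive and marker-negative fractions. The markers were repo (the positive fraction was labelled as enriched for glia), elav (neurons) and prospero, here pros (neuroblasts). The repo and elav sorts were made 6-8 h and 18-22 h after egg laying and the pros sort at 6-8 h, which gave 10 groups of 2 libraries, labelled as biological duplicates. The sources used here give no strain, genotype or treatment, so a group is known by its marker, fraction and stage. A negative fraction is the rest of the embryo's cells, epidermis and cells of the other markers included. Total RNA was made into small RNA libraries, so the values are short fragments of these transcripts and not measured mRNA levels. In such mixed samples, fewer cells of a type and less RNA per cell cannot be told apart.

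The libraries held 3994804 to 13402457 counts outside the miRNA rows. Values are CPM, each gene's count as a share of these library totals after TMM factors of 0.637 to 1.73. The second library of the elav-positive fraction at 6-8 h had the highest factor (1.732) and 21.36% of its counts on protein-coding rows, against 9.533 to 17.89% in the other 19 libraries. The second pros-positive library held 0 counts for 49 of the 76 cuticle genes, against 3 to 28 genes elsewhere, and for 25.5% of all protein-coding rows. All 11 neuron marker genes measured passed as higher in elav-positive than elav-negative cells at both stages. Of 10 glia markers, 9 passed as higher in the repo-positive fraction at the early stage and 7 at the late stage (edgeR, adjusted p under 0.05).

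The 76 genes held 12128 counts in all 20 libraries together, with a median of 64.5 and a maximum of 2055.4 per gene. TwdlF alone held 16.9% of them, and the 12 genes with the most counts (TwdlF, Cpr51A, TwdlW, Cpr64Ad, Cpr66D, TwdlG, TwdlT, TwdlM, Cpr66Cb, TwdlL, TwdlE and Cpr64Ab) held 57.4%. Just inside the minimum lay Cpr49Ad with 20.43 and Cpr64Aa with 20.77 counts, and just outside it Cpr64Ac with 19.98 and TwdlJ with 18.70. Of the 1520 values of the 76 genes, 17.2% were 0 and 73.8% were not whole numbers (tolerance 1e-06), since a read with several places had been shared among them. Cpr65Ax1 and Cpr65Ax2 had equal values in 15 of 20 libraries, so they are close to 1 measurement. Cpr57A and Twdlalpha overlapped another row on the same strand, and TwdlU is annotated as a pseudogene in the later gene table.

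Members lay on 2L (6 genes), 2R (20), 3L (23), 3R (20) and X (7). Of all 96 Cpr and Twdl rows, 69 stood in 15 runs of neighbours separated by at most 20 kb. A run at 3R:4243606-4255833 (build BDGP6, as in the count tables) held TwdlU, TwdlF, TwdlG and TwdlV and took 2700.0 of the counts. A second Tweedle run at 3R:26619118-26641054 held 12 genes from TwdlM to TwdlD, 7 of them members, with 1851.8 counts. The Cpr64A run at 3L:4207838-4216414 held 922.4 counts, of which nearly all fell on Cpr64Ab and Cpr64Ad. Counts were thus spread unevenly along runs of related genes.

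Summed over the 76 genes, cuticle fragments were higher at 18-22 h than at 6-8 h in each of the 4 fractions followed over time. In repo-negative cells the 2 libraries were at 25.5 and 27.7 CPM early and 150.9 and 169.4 CPM late, a ratio of 6.01 ± 0.61 (SD, n = 2). In elav-negative cells they were at 19.5 and 16.7 CPM early and 209 and 152.4 CPM late (9.98 ± 2.47). The rise was also present, and smaller as a ratio, in the positive fractions. Repo-positive libraries went from 37.3 and 53.9 to 86.4 and 109.1 CPM (2.15 ± 0.66), and elav-positive libraries from 33.8 and 39.5 to 114.9 and 97.7 CPM (2.90 ± 0.46). No library of one stage overlapped the other stage in any of these fractions. Without TwdlF the ratios were 4.58, 9.34, 1.72 and 2.42 in the same order. These sums were not tested.

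**Figure D1:**
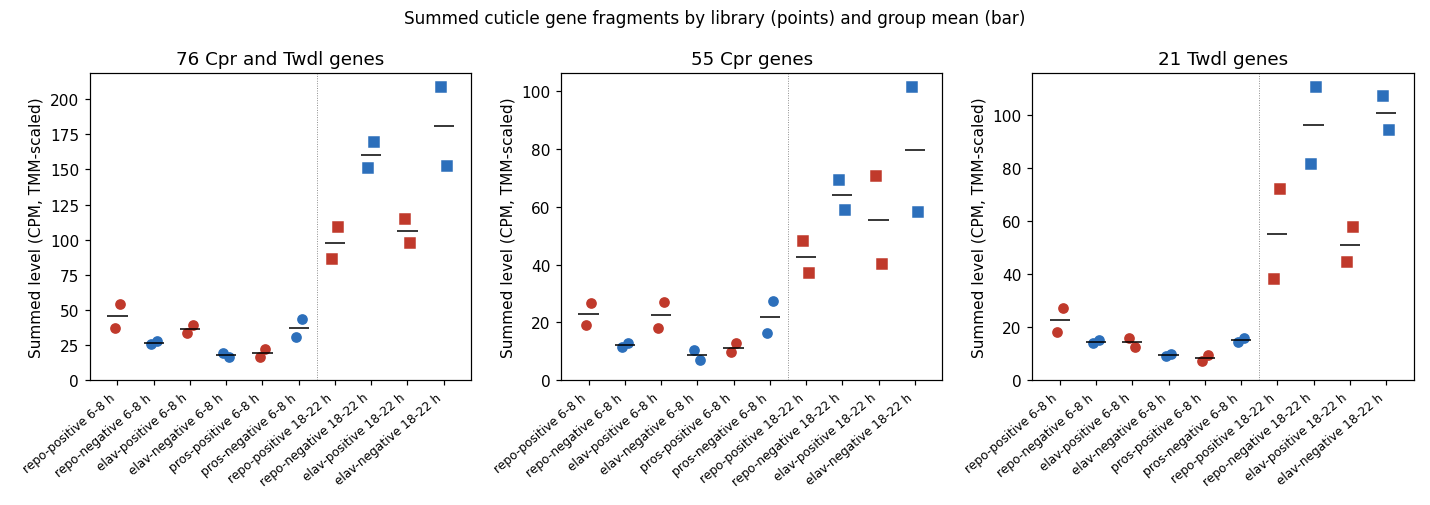
Summed level of the 76 cuticle genes, the 55 Cpr genes and the 21 Twdl genes (CPM, TMM-scaled, linear axes from 0) in each of the 20 libraries (points, red for positive and blue for negative fractions, squares for 18-22 h), with the group mean as a bar. For the 76 genes the lowest 18-22 h library is at 86.4 CPM and the highest 6-8 h library at 53.9 CPM.

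The order of the fractions differed between stages. At 6-8 h the sum was higher in repo-positive than repo-negative cells (ratio 1.71 ± 0.45) and in elav-positive than elav-negative cells (2.02 ± 0.32), while pros-positive libraries, at 16.5 and 22.3 CPM, lay below pros-negative ones, at 30.6 and 43.2 CPM (0.53 ± 0.17). Medians over single genes were limited by low counts, and each group sum under 3 counts was raised to 3 for them. At 6-8 h, 22 of the 76 genes were at or under 3 counts in both repo fractions (18 in elav, 20 in pros). The log2 difference of such a gene is set by library size alone. The median log2 difference over all 76 genes was -0.26 in the repo, 0.12 in the elav and -0.67 in the pros sort. Over the 35 genes tested below it was -0.26, 0.34 and -1.73, and over all rows tested -0.05, -0.05 and -0.08. Both repo medians of the cuticle genes, and the pros median over all 76, equal the value that library size alone gives. They therefore do not describe the genes. At 18-22 h both positive fractions lay below their negative fractions, with ratios of 0.61 ± 0.11 in the repo sort and 0.59 ± 0.15 in the elav sort. The elav fractions at 18-22 h overlapped with counts scaled to the library total alone (121 and 81.9 against 170.5 and 97.1 CPM). They also overlapped without TwdlF (108.9 and 68.4 against 182.4 and 106.2 CPM). At 6-8 h both families had the same order. Cpr genes summed to 17.9 and 27.0 CPM in elav-positive cells at 6-8 h against 10.4 and 6.94 CPM in elav-negative cells, and Twdl genes to 15.9 and 12.5 against 9.11 and 9.75 CPM. At 18-22 h the elav fractions overlapped for the Cpr genes (70.5 and 40.1 against 101.6 and 58.1 CPM) and not for the Twdl genes (44.4 and 57.6 against 107.3 and 94.4 CPM).

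Most of the genes were low. Per kilobase of exon, the median cuticle gene lay above 20.1 to 29.8% of protein-coding rows in the 6-8 h groups and above 33.8 to 45% of them in the 18-22 h groups. The highest cuticle gene per kilobase at 18-22 h was TwdlF in all 4 groups, at 34.4 CPM per kb in repo-negative, 29.5 in elav-negative, 15.8 in repo-positive and 14.3 in elav-positive cells. At 6-8 h the highest gene differed between groups. It was TwdlB in repo-positive (4.67 CPM per kb), TwdlL in elav-positive (2.27), TwdlW in repo-negative (4.30) and elav-negative (3.13), Cpr64Ad in pros-positive (2.31) and Cpr64Ab in pros-negative cells (4.59). Over all 20 libraries the mean level per kilobase was highest for TwdlF (10.1 CPM per kb), followed by Cpr51A (5.38), Cpr64Ad (3.55), TwdlW (3.28), Cpr64Ab (3.24), Cpr66D (2.95), TwdlM (2.28) and Cpr66Cb (2.06).

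For tests of single genes a filter on low counts kept 35 of the 76 members (19 Cpr, 16 Twdl) among 11726 rows. The other 41 were too sparse, with at most 3.34 CPM in any library. A gene that is low at 6-8 h could pass this filter through its 18-22 h libraries alone. In the same way a gene could pass through the libraries of either fraction alone. The counts below therefore describe the tested genes and are no support for a rise of the families or a difference between fractions.

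**Figure D2:**
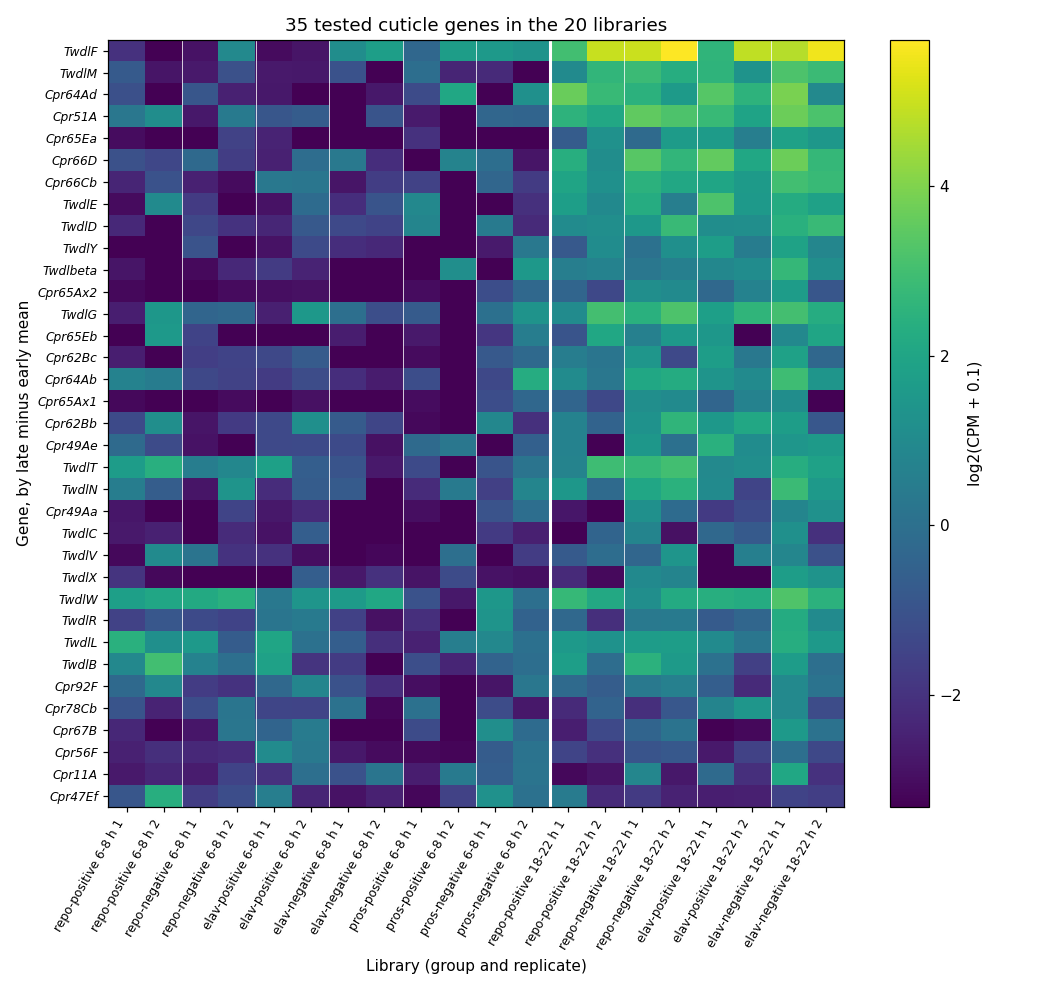
Level of the 35 tested cuticle genes (rows, ordered by late minus early mean) in each of the 20 libraries (columns), as log2(CPM + 0.1). The columns right of the wide white line are 18-22 h libraries. TwdlF is the brightest row there, while TwdlW is bright in most columns of both stages.

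In elav-negative cells 12 of the 35 tested genes rose from 6-8 h to 18-22 h and 0 fell, against 6.77% of all rows that rose and 5.43% that fell. In repo-negative cells 6 rose and 0 fell (7.16% and 4.27% of all rows). Both late libraries lay above both early ones for 31 genes in elav-negative cells (30.9% of all rows) and 28 in repo-negative cells (30.3%), and below them for 0 genes in elav-negative (26.1% of rows) and 1 in repo-negative cells (30.4%). With every group sum under 3 counts, early or late, raised to 3, the median log2 fold change of the tested genes was 3.46 in elav-negative and 2.81 in repo-negative cells. It was 0.03 and -0.09 over all rows tested. Over all 76 members it was 1.24 and 0.91. All p-values are Benjamini-Hochberg adjusted over all rows tested by the quasi-likelihood test of edgeR, and measure the spread between these libraries.

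TwdlF, a Tweedle cuticle protein, was the most abundant of the genes. In repo-negative cells its level was 0.0367 and 1.83 CPM at 6-8 h and 31.9 and 53.0 CPM at 18-22 h (log2 fold change 5.53 ± 1.04, adjusted p = 0.0017). In elav-negative cells it was 2.04 and 3.26 CPM early and 26.6 and 46.2 CPM late (3.73 ± 0.93, adjusted p = 0.0122). All late values stood above all early ones. Its neighbour TwdlG was at 0.666 and 0.738 CPM early and 5.29 and 9.01 CPM late in repo-negative cells, which did not pass (adjusted p = 0.158). TwdlV, the next gene of the run, was at 1.03 and 0.153 CPM early and 0.688 and 2.53 CPM late there, so its stages overlapped.

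TwdlM, at one end of the second Tweedle run, rose in both negative fractions. It went from 0.0528 and 0.377 to 7.03 and 4.91 CPM in repo-negative cells, 2.83 against 112.94 counts, a ratio of 26.4 (95% interval 8.81 to 130, counting error only, adjusted p = 0.0239). In elav-negative cells it went from 0.381 and 0 to 9.18 and 7.15 CPM (ratio 98.8, 17.4 to 3930, adjusted p = 0.0139). TwdlD stands at the other end of the same run, and dominant alleles of it make larvae short and stout. It went from 0.299 and 0.256 to 5.21 and 6.87 CPM in elav-negative cells (ratio 23.5, 7.81 to 116, adjusted p = 0.0474). In repo-negative cells TwdlD was at 0.281 and 0.153 CPM early and 2.72 and 6.98 CPM late (adjusted p = 0.054). TwdlR, also of this run, rose in elav-negative cells from 0.238 and 0.0313 to 4.62 and 1.93 CPM (ratio 40.8, 7.03 to 1640, adjusted p = 0.0479). Both ends of the run thus held genes that passed in elav-negative cells. TwdlB, TwdlL and TwdlN lie between them and did not pass in either fraction, and a difference by place in the run was not tested. In elav-negative cells TwdlN was at 0.511 and 0 CPM early and 7.17 and 2.91 CPM late (adjusted p = 0.0962), and TwdlL at 0.549 and 0.133 CPM early and 4.94 and 2.84 CPM late (adjusted p = 0.0676).

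The Tweedle genes TwdlT and Twdlbeta also rose in elav-negative cells. TwdlT went from 0.414 and 0.0539 to 4.84 and 3.50 CPM (ratio 25.2, 6.73 to 213, adjusted p = 0.0405). Twdlbeta was at 0 in both early libraries and at 6.36 and 2.11 CPM late, at least 18-fold higher with a floor of 3 counts over the early group (adjusted p = 0.0444). Early and late levels did not overlap for either gene. TwdlW did not follow the other abundant Tweedle genes. It was at 4.37 and 5.32 CPM early and 2.10 and 4.59 CPM late in repo-negative cells, and at 2.97 and 4.07 CPM early and 9.36 and 5.52 CPM late in elav-negative cells, and passed in neither. Of the other tested Tweedle genes, TwdlE was at 0.195 and 0 CPM early and 4.71 and 1.36 CPM late in repo-negative cells (adjusted p = 0.103). TwdlY and TwdlX, neighbours on the X chromosome, were in elav-negative cells at 0.128 and 0.104 CPM and at 0.0511 and 0.147 CPM early. Late they were there at 3.62 and 1.68 CPM and at 3.20 and 2.40 CPM (adjusted p = 0.106 and 0.118). TwdlC was at 0 in both early and at 2.25 and 0.136 CPM in the late elav-negative libraries (adjusted p = 0.177). These genes had higher late values without passing the test.

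Cpr51A, a Cpr protein, was the most abundant Cpr gene by total counts. In elav-negative cells it was at 0 and 0.413 CPM early and 12.9 and 8.81 CPM late (178.02 against 3.29 counts, log2 fold change 5.44 ± 1.13, adjusted p = 0.00335). In repo-negative cells it was at 0.0484 and 1.22 CPM early and 11.5 and 9.17 CPM late (4.06 ± 1.00, adjusted p = 0.0107). The late libraries were close to each other and lay above the early ones in both fractions. Cpr66Cb went from 0.0434 and 0.209 to 7.78 and 6.69 CPM in elav-negative cells (ratio 43.4, 11.8 to 363, adjusted p = 0.00672). In repo-negative cells it went from 0.0777 and 0.0214 to 5.54 and 4.23 CPM, at least 21.6-fold higher (adjusted p = 0.00654). Cpr66D was at 1.15 and 0.125 CPM early and 12.99 and 6.45 CPM late in elav-negative cells and just missed the threshold (adjusted p = 0.0527).

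Of the Cpr64A genes, Cpr64Ab rose in elav-negative cells from 0.128 and 0.0627 to 7.53 and 2.55 CPM (ratio 63.9, 11.2 to 2550, adjusted p = 0.00807). Cpr64Ad rose there from 0 and 0.0502 to 14.9 and 1.80 CPM, at least 36.8-fold (adjusted p = 0.018). The 2 late libraries differed widely for Cpr64Ad. In repo-negative cells Cpr64Ad was at 0.440 and 0.0764 CPM early and 5.60 and 2.98 CPM late (adjusted p = 0.103). The other 4 called Cpr genes rose in 1 fraction each. Cpr62Bc (at least 9.1-fold) and Cpr65Ea (at least 12.5-fold, adjusted p = 0.0375 for both) had 0 counts in elav-negative cells at 6-8 h. Cpr62Bb rose 28.4-fold in repo-negative cells (7.61 to 238, adjusted p = 0.0447), as did Cpr65Ax2 by at least 9.01-fold (adjusted p = 0.0474), whose values there equal those of Cpr65Ax1 (adjusted p = 0.0772).

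Of these calls in the negative fractions, those for Cpr51A in elav-negative and TwdlF in repo-negative cells held when any single library of the comparison was left out (highest adjusted p of 0.0354 and 0.0289). Cpr66Cb lost its call in elav-negative cells without the first 6-8 h library (adjusted p = 0.0599) and in repo-negative cells without the second (0.1). TwdlF in elav-negative cells kept its call in 1 of 4 such fits (highest adjusted p = 0.089), and Cpr51A in repo-negative cells in 2 of 4 (0.111). All other calls in the negative fractions were lost without at least 1 library of the comparison, the number of genes called ranging from 2 to 6 in elav-negative and from 2 to 3 in repo-negative cells. Without the second libraries of both elav fractions at 6-8 h, 2 genes were called in elav-negative cells.

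**Figure D3:**
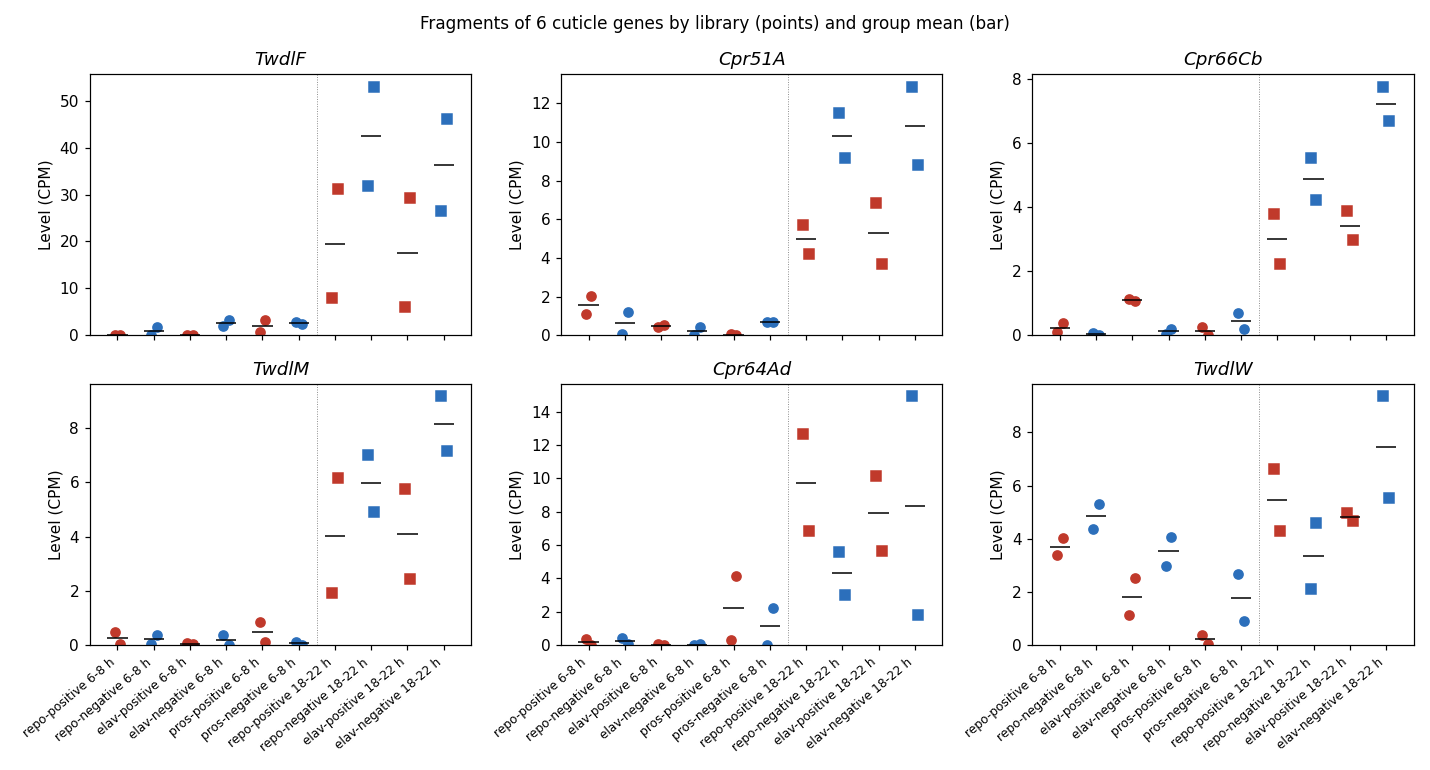
Level of 6 cuticle genes (CPM, linear axes from 0, each with its own scale) in each library (points, red for positive and blue for negative fractions, squares for 18-22 h) with the group mean as a bar. TwdlF, Cpr51A, Cpr66Cb and TwdlM are low at 6-8 h and higher in all 8 late libraries than in any early one, Cpr64Ad reaches 4.12 CPM in 1 pros-positive library, and TwdlW has values of the same order at both stages.

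In the positive fractions, enriched for glia and neurons, TwdlF was called in both. In repo-positive cells 1 of the 35 tested genes rose and 0 fell (1.85% of all rows in each direction), and in elav-positive cells 3 rose and 0 fell (1.83% and 1.19%). The groups did not overlap, with late above early, for 15 genes in repo-positive (24.1% of all rows) and 21 in elav-positive cells (25.2%), and with late below early for 1 (26.1%) and 5 (23.8%). At an unadjusted p under 0.05, 2 genes (Cpr67B and Cpr56F) were lower late in elav-positive cells (7.16% of rows). In repo-positive, repo-negative and elav-negative cells 0 were (8.91%, 10.7% and 11.5% of rows). DESeq2 called 0 genes lower in any of the 4. With group sums under 3 counts raised to 3, the median log2 fold change was 0.60 and 2.11 over the tested genes, and 0.20 and 0.33 over all 76 members. In repo-positive cells 16 of the 76 were at or under 3 counts at both stages. The 0.20 equals the value that library size alone gives such genes, so it does not describe a change of the members.

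TwdlF rose in both positive fractions. In repo-positive cells it was at 0.145 and 0 CPM at 6-8 h and 7.86 and 31.1 CPM at 18-22 h, 1.06 against 262.69 counts (ratio 302, 53.6 to 12000, adjusted p = 0.00313). In elav-positive cells it was at 0.0206 and 0.0426 CPM early and 5.98 and 29.2 CPM late, at least 108-fold higher (adjusted p = 0.00276). The late libraries of each positive fraction differed several-fold from each other, and all lay above the early ones. The call in elav-positive cells held without any single library (highest adjusted p = 0.0329), and that in repo-positive cells was lost without the second 6-8 h library (0.0522). In elav-positive cells Cpr64Ad also rose, from 0.0484 and 0 to 10.2 and 5.66 CPM (at least 49.1-fold, adjusted p = 0.035), as did TwdlM, from 0.0543 and 0.0485 to 5.75 and 2.42 CPM (at least 25.4-fold, adjusted p = 0.0435). Both of these calls were lost whichever library of the comparison was left out. In repo-positive cells Cpr64Ad was at 0.365 and 0 CPM early and 12.6 and 6.81 CPM late (adjusted p = 0.0642). Cpr51A was at 0.440 and 0.525 CPM early and 6.83 and 3.69 CPM late in elav-positive cells (adjusted p = 0.0618). Cpr66Cb was at 1.14 and 1.06 CPM early and 3.89 and 2.97 CPM late there.

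Set across the repo and elav sorts together, 11 of the 76 genes (14.5%) had all 8 late libraries above all 8 early ones, against 1.53% of the 14548 rows with at least 20 counts, and 0 had all 8 below (0.976% of rows). The 11 were Cpr51A, Cpr64Ad, Cpr65Ax2, Cpr65Ea, Cpr66Cb, Cpr66D, Twdlbeta, TwdlD, TwdlF, TwdlM and TwdlY. The late mean was higher than the early mean for 60 genes (46.9% of rows) and more than 2 times higher for 35 (18.7% of rows). These counts cover all members, whether or not they passed the filter for single-gene tests. A gene could still reach the minimum of 20 counts through its late libraries, as Cpr78Cc did with 43.96 counts. The other rows met the same minimum, and the counts are no support for a rise of the families.

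The 16 genes that were not higher late were all Cpr genes, and only Cpr47Ef and Cpr56F of them passed the filter. Cpr47Ef averaged 0.947 CPM over the 8 early and 0.286 CPM over the 8 late libraries, and the early mean rested mainly on 1 repo-positive library at 5.03 CPM, the other being at 0.441 CPM. Cpr56F averaged 0.455 CPM early and 0.342 CPM late and had its highest values, 1.96 and 1.17 CPM, in elav-positive cells at 6-8 h. The authors' deposited tables, described below, list Cpr56F as higher late in both positive fractions. Of the sparse ones, Cpr76Ba averaged 0.528 CPM early and 0.0805 CPM late, with 3.30 CPM in 1 elav-positive library and at most 0.775 CPM in the others. No gene fell from early to late past the test in any fraction.

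**Figure D4:**
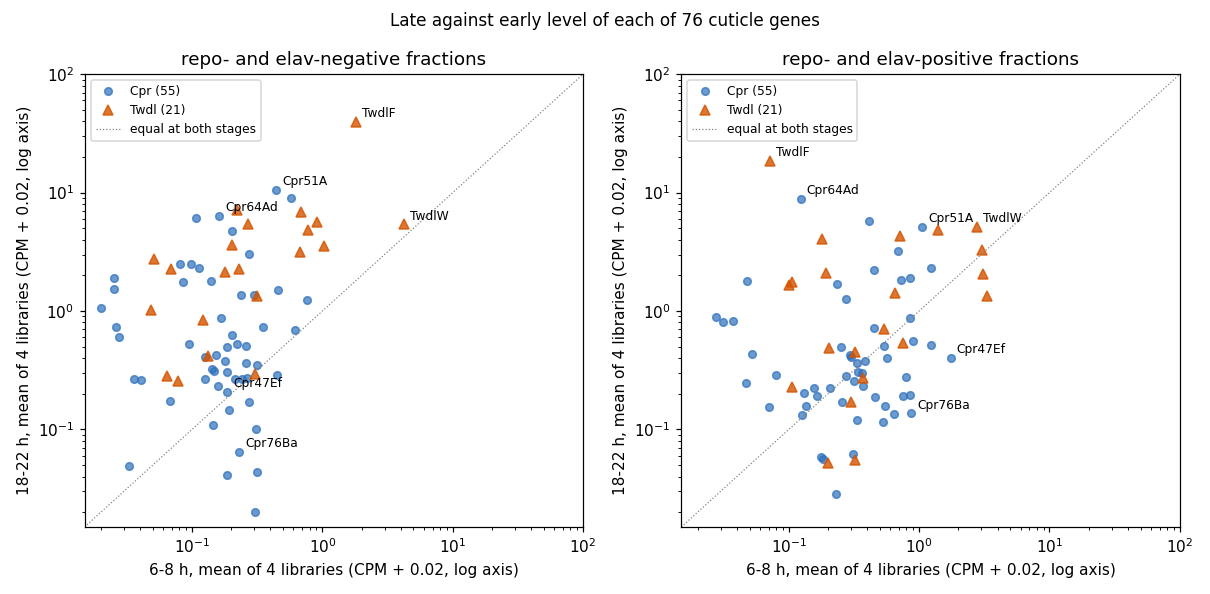
Mean level of each of the 76 genes over the 4 libraries at 6-8 h (x axis) and the 4 at 18-22 h (y axis), as CPM + 0.02 on log axes, for the negative (left) and positive (right) fractions of the repo and elav sorts, with a dotted line of equal levels. TwdlF is the highest point late in both panels, TwdlW lies close to the line, and Cpr47Ef lies below it on the right.

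At 6-8 h no cuticle gene was higher in a positive fraction past the test, although the sums were. In the repo sort 0 of 35 were called in either direction by edgeR (2.38% of all rows higher and 0.981% lower), 0 by DESeq2, and at an unadjusted p under 0.05, 3 were higher (Cpr49Ae, Cpr62Bb and Cpr47Ef; 8.6% of rows) and 0 lower (7.67%). In the elav sort 0 were higher (5.38% of rows) and 1 was lower (3.6%), and at an unadjusted p under 0.05, 8 were higher (12.1% of rows) and 1 lower (10%). The gene that was lower was TwdlF, at 0.0206 and 0.0426 CPM in elav-positive against 2.04 and 3.26 CPM in elav-negative cells, at least 17.7-fold lower (adjusted p = 0.0169). Both elav-positive libraries lay above both negative ones for 16 genes (26.5% of rows) and below them for 2 (24.4%), and in the repo sort for 9 (23.5%) and 3 (24.5%). The TwdlF call was lost without the second elav-positive or the second elav-negative library. The Tweedle genes TwdlB, TwdlT and TwdlL had a higher mean in positive cells. TwdlB was at 1.76 and 7.81 CPM in repo-positive and 1.52 and 0.878 CPM in repo-negative cells. TwdlT was at 3.09 and 5.09 against 1.33 and 1.74 CPM in the same sort. In the elav sort TwdlL was at 3.92 and 0.927 CPM in positive and 0.549 and 0.133 CPM in negative cells (adjusted p = 0.17), and TwdlT at 3.44 and 0.558 against 0.414 and 0.0539 CPM (adjusted p = 0.16). The 2 positive libraries differed widely for TwdlB in the repo sort and for TwdlL and TwdlT in the elav sort, and both repo-positive values of TwdlT lay above both negative ones. Cpr56F was at 1.96 and 1.17 CPM in elav-positive and 0.0511 and 0.0213 CPM in elav-negative cells (adjusted p = 0.0605).

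At 18-22 h the log2 difference was positive for 6 of 35 genes in each sort, against 17 in the repo and 26 in the elav sort at 6-8 h. The share of all rows with a positive difference was not counted. In the edgeR fit the median over all rows tested was -0.12 (repo) and -0.19 (elav) at 18-22 h, against -0.00 and 0.00 at 6-8 h. In the elav sort 2 of 35 genes were lower in positive cells (5.24% of rows) and 0 were higher (8.83%), and for 17 both positive libraries lay below both negative ones (33.8% of rows), with 0 above (27.2%). TwdlX was at 0 in both elav-positive libraries and at 3.20 and 2.40 CPM in elav-negative ones, at least 15.5-fold lower (adjusted p = 0.0399). Cpr67B was at 0 and 0.0137 CPM against 2.82 and 0.961 CPM, at least 11-fold lower (adjusted p = 0.0479). Neither call held when a library of the comparison was left out. DESeq2 called 0 genes, and gave TwdlX and Cpr67B no adjusted p, so it does not speak to these calls. In the repo sort edgeR and DESeq2 called 0 (0.87% of rows lower, 1.44% higher), with 3 genes lower (Cpr49Aa, TwdlX and Cpr11A; 6.18% of rows) and 0 higher (5.09%) at an unadjusted p under 0.05. There 18 genes lay below without overlap (26.8% of rows) and 1 above (20.5%). TwdlX was at 0.112 and 0.0167 CPM in repo-positive and 1.86 and 1.58 CPM in repo-negative cells (adjusted p = 0.394). With group sums under 3 counts raised to 3, the median log2 difference was -1.02 in both sorts over the tested genes. Over all 76 members it was -0.26 and -0.55 in the repo and elav sorts. TwdlX had fragments in both negative fractions at 18-22 h and few or none in the positive ones. It held 15.68 to 29.14 counts in those negative libraries and at most 6.5 in any other. TwdlX thus passed the filter only through the groups where it is high, and its calls are no support for a difference of the families. TwdlW was high in both fractions of the repo sort, with 6.61 and 4.30 CPM in repo-positive and 2.10 and 4.59 CPM in repo-negative cells.

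Whether the difference between fractions itself changed with stage was tested gene by gene. Of the 35 genes 0 passed in the repo sort (0.00853% of rows higher and 0.0768% lower) and 0 in the elav sort (0.35% and 0.793%) by edgeR. At an unadjusted p under 0.05, 3 genes moved to the negative side with stage in the repo sort (5.79% of rows) and 0 to the positive side (2.71%). In the elav sort 9 moved to the negative side (6.98%) and 1, TwdlF, to the positive side (5.67%). DESeq2 called 0 in the repo sort and 1 in the elav sort. Cpr67B came closest by edgeR (adjusted p = 0.0703). It was at 0.658 and 1.26 CPM in elav-positive and 0 in both elav-negative libraries at 6-8 h, the reverse of its order at 18-22 h.

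In the pros sort, 0 of 35 genes were called by edgeR (1.2% of rows higher and 1.26% lower) and 2 were lower by DESeq2. At an unadjusted p under 0.05, 0 were higher (7.38% of rows) and 13 lower (9.99%) in pros-positive cells. Without overlap 18 were lower (24.2% of rows) and 2 higher (19.2%). TwdlW was at 0.389 and 0.0504 CPM in pros-positive and 2.67 and 0.900 CPM in pros-negative cells (log2 fold change -2.77 ± 0.87, adjusted p = 0.0961). Cpr64Ab was at 0.344 and 0 CPM against 0.289 and 4.78 CPM, so its groups overlapped. TwdlF was present in both fractions, at 0.703 and 3.21 CPM in pros-positive and 2.82 and 2.43 CPM in pros-negative cells. Cpr64Ad and Twdlbeta reached 4.12 and 2.11 CPM in the second pros-positive library, where most other cuticle genes had 0 counts. That library's many zeros move with the lower levels in pros-positive cells, and their part in the result was not tested.

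Genes of the same pathway that carry other names were counted from lists. Of 29 genes with the Rebers and Riddiford consensus outside the Cpr naming, 10 were tested. From 6-8 h to 18-22 h, 5 rose in repo-negative, 4 in elav-negative, 3 in repo-positive and 4 in elav-positive cells, and 0 fell. Of all rows tested, 7.16%, 6.77%, 1.85% and 1.83% rose in these fractions and 4.27%, 5.43%, 1.85% and 1.19% fell. These shares also stand beside the late against early counts of the lists below, several of which are small. List genes too could pass the filter through their late libraries alone. Lcp65Ag1, a larval cuticle protein, averaged 0.443 ± 0.509 CPM early and 9.22 ± 2.24 CPM late in repo-negative cells (4.30 ± 0.98 on the log2 scale, adjusted p = 0.00632) and rose in all 4 fractions, with Lcp65Ag2 beside it. Lcp65Ag1, Lcp65Ag2 and Lcp65Ag3, all counted in both negative fractions and in elav-positive cells, are near-identical copies that share reads and are not separate measurements. The gene resilin, for an elastic cuticle protein, passed in no fraction (2.01 ± 0.243 CPM early and 1.13 ± 0.0602 CPM late in elav-negative cells, adjusted p = 0.719). Of 13 chitin-binding and chitin deacetylase genes (obstructor family and relatives), 9 were tested, and 6 rose in each negative fraction, 3 in repo-positive and 4 in elav-positive cells. Gasp, an obstructor protein of the tracheal cuticle, rose from 1.16 ± 0.168 to 51.8 ± 19.8 CPM in repo-negative cells (5.51 ± 0.61, adjusted p = 1.19e-05), and serp and verm, chitin deacetylases of the trachea, rose by 2.83 ± 0.70 and 2.75 ± 0.71 on the log2 scale there (adjusted p = 0.0113 and 0.0143).

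Of 12 tested genes for chitin synthesis and organization, kkv (chitin synthase) and Cht7 (a chitinase) rose in both negative fractions and 0 rose in the positive ones; kkv went from 3.08 ± 2.17 to 19.3 ± 4.84 CPM in elav-negative cells (2.58 ± 0.68, adjusted p = 0.0168). Of 8 tested genes of tanning and melanization, e (ebony) rose in repo-negative cells and e, Pu and yellow-d in elav-negative cells, while ple, the tyrosine hydroxylase that starts the tanning pathway, did not pass (1.13 ± 1.08, adjusted p = 0.557 in elav-negative cells). Of 10 tested apical matrix genes with a zona pellucida domain, 2 rose in each negative fraction, dyl in both. The gene dpy (dumpy) did not pass (log2 fold change 0.00 ± 0.35 in repo-negative cells with adjusted p = 0.999).

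Of 15 tested ecdysone response and synthesis genes, 4 rose in each negative fraction and 1 fell in repo-negative cells. The nuclear receptor ftz-f1, which in the fly follows the fall of ecdysone, rose from 9.18 ± 2.46 to 122 ± 34.3 CPM in repo-negative cells (3.72 ± 0.44, adjusted p = 2.22e-05) and in repo-positive cells (1.97 ± 0.41, adjusted p = 0.0104). In elav-positive cells it did not pass (1.39 ± 0.41, adjusted p = 0.0675) and Hr4 fell by 1.90 ± 0.47 on the log2 scale (adjusted p = 0.034). The ecdysone receptor gene EcR did not pass in any fraction, with log2 fold changes of 0.09 to 0.72.

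Markers of other cells moved between the same libraries. The summed level of 14 epidermal genes was 321.6 to 523 CPM in the 4 negative repo and elav libraries at 6-8 h and 254.2 to 421.2 CPM at 18-22 h, and 192 to 300.7 and 141.2 to 273 CPM in the positive ones, with 0 of the 14 genes at 0 in any of these libraries. Of these genes 1, ect, rose in all 4 fractions. In repo-negative cells 3 fell (grh, pnr and shg), in elav-negative cells 3 (grh, tsh and shg), in repo-positive cells 2 (ovo and pnr) and in elav-positive cells 2 (ovo and shg). For shg, the E-cadherin gene, the log2 fold change was -1.09 ± 0.35 in repo-negative and -1.59 ± 0.36 in elav-negative cells. It held the most counts of the list (14432.2). At 18-22 h, 4 of the 14 genes (sn, vvl, sv and tsh) were higher in elav-positive than elav-negative cells (8.83% of rows). Another 3 (ovo, pnr and ect) were lower (5.24%). The sum is therefore not a measure of epidermis alone. At 6-8 h the epidermal sums of the repo and elav sorts were thus lower in positive than in negative fractions, whereas the cuticle sums were higher. In the pros sort the epidermal sum was 316.5 to 334.9 CPM in positive and 301.7 to 318.7 CPM in negative cells, where the cuticle sum was lower in positive cells. Summed hemocyte genes, all 10 of 10 measured, were in the repo and elav sorts at 202.3 to 841.1 CPM in negative libraries early and 3442 to 7963 CPM late, and at 43.1 to 85.4 and 322.7 to 557.6 CPM in positive ones. Muscle genes went from 175.6 to 357.8 up to 1424 to 2107 CPM and 7 tracheal genes from 50.1 to 75.4 up to 150.5 to 211.2 CPM in the negative libraries of these sorts. Of the tracheal list Gasp, serp and verm rose in both negative fractions, all 3 also members of the chitin-binding list, and the other 4 (trh, kni, pyd3 and vvl) passed in neither negative fraction. The median log2 fold change of the tracheal list was 0.79 in repo-negative and -0.47 in elav-negative cells. No defining marker of hemocytes, muscle or trachea was at 0 in these libraries. The part of cell composition in the cuticle gene changes was not tested.

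The authors also deposited tables of genes paired with miRNAs, from gene libraries not analysed here. Of the Cpr and Twdl genes, 22 appear in the authors' deposited tables, in 50 entries over 11 comparisons, with the direction read as the first-named fraction here over the second. The tables of late against early do not list the gene their own fraction was sorted on, so their direction is taken to be like that of the other tables. Read so, repo was at -1.17 in the authors' deposited table of elav-positive cells, and it was also called lower late in the fragments of these cells. Late against early, 7 of 7 listed genes were higher in repo-positive and 8 of 8 in elav-positive cells in the authors' deposited tables. The largest of these was Cpr64Ab in elav-positive cells, with a log2 fold change of 6.19 in the authors' deposited table (adjusted p = 9.9e-18), where the fragments gave 3.07 ± 1.24 (adjusted p = 0.222). In the authors' deposited table of elav-positive against elav-negative cells at 18-22 h, 5 of 5 listed genes were lower. At 6-8 h their deposited tables list 5 higher and 1 lower in the repo sort and 4 higher and 3 lower in the elav sort. Of 31 entries with a fragment fit here, 25 had the same sign as the authors' deposited value and 6 the other sign. No fragment fit among these entries passed (edgeR, lowest adjusted p = 0.0808). Some of the same sign were near 0 in the fragments. Late against early, TwdlT was at 3.43 in repo-positive and 4.44 in elav-positive cells in the authors' deposited tables, and at 0.13 ± 1.00 and 0.02 ± 1.02 in the fragments. At 6-8 h the entries of the other sign were TwdlW, Cpr64Ab and TwdlD in the elav sort and Cpr62Bc in the repo sort. Late against early they were TwdlV in repo-positive and Cpr56F in elav-positive cells. TwdlW was at 2.27 in the authors' deposited table and -0.94 ± 0.74 in the fragments. Cpr56F was at 4.30 (adjusted p = 0.000495) in the authors' deposited table and -3.49 ± 1.54 in the fragments (edgeR, adjusted p = 0.266). The tables list only genes that passed and were paired with a miRNA of opposite change, so the share of all cuticle genes that changed cannot be read from them.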

How the data were processed

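Small RNA libraries (single 51 bp reads) from 10 groups of 2 were used. Per the submitters' processing notes, reads were mapped with Bowtie 1.1.2 and handled with SAMtools 1.8, and DESeq2 is named without a version. The builds named are BDGP6 and dm6. The deposited values are expected counts per gene. Per the file headers, featureCounts 1.5.1 counted reads on the same strand over Ensembl release 85 exons, shared reads with several places as fractions, and gave a read to every gene it overlapped. The headers of the pros libraries name another mapping directory than the rest. The design assumed whole counts, so the values were rounded before the count models. The authors' deposited tables hold log2 fold changes and p-values of genes paired with miRNAs. Their direction was read from the genes used for sorting, where listed. It was taken to be alike in the 2 tables of late against early, which do not list the gene their own fraction was sorted on.

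Of 17559 rows, 237 miRNA rows and 59 rows overlapping a hairpin were left out. Ensembl release 115 gave names for 17253 identifiers and none for 306. The main test was edgeR 4.0.16 (R 4.3.3), quasi-likelihood, with TMM factors and the filterByExpr filter (minimum count 10) over all 20 libraries, 10 residual degrees of freedom and Benjamini-Hochberg adjustment at 0.05. The biological coefficient of variation over all rows was 0.511. The method was tested on simulated data with a common spread for all rows and changes placed only in better-counted rows, so the test does not cover sparse genes. Errors are SD of 2 libraries or standard errors of the fit. A fold against a group under 1 count is a bound that takes 3 counts as the group's floor, and with 1 to 3 counts a ratio with a 95% exact interval is given. Both cover counting error only. The precision is set by 2 libraries per group and by few counts per gene.

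The genes named were the 12 with most counts, up to 5 per direction and comparison that passed without overlap, every tested Tweedle gene, tested genes higher early, up to 4 per pathway list and those next to the minimum. Others (Cpr76Ba among them) were named after their values were seen. Members and lists were chosen with earlier results of these data known. The epidermal list is given without sls, a muscle gene, which was left out after its level was seen. Alternatives were other scalings, DESeq2 1.42.0, no filter, omitted libraries and a replicate block. No label says that equal replicate numbers share embryos. Over all rows tested, deviations of same-numbered fractions correlated at 0.02 to 0.19, so the numbers were not taken as pairs. Single genes did move with the number. In every 18-22 h group TwdlF was higher in the second library, and Cpr64Ad and Cpr66D were higher in the first. TwdlW had no such order. Whether same-numbered libraries shared a collection of embryos was not tested.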

Additional observations from a re-analysis of the deposited data

Results flagged for a closer look

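The positive over negative ratio of the summed cuticle levels lay on opposite sides of 1 in several pairs of sorts, with every library of one sort moving one way and every library of the other the opposite way. None of these differences was tested. In the elav sort at 18-22 h the fractions overlapped for all 76 genes with total-count scaling and also without TwdlF. For all 76 genes the ratio was 1.71 against 0.61 for repo at 6-8 h and 18-22 h, and 2.02 against 0.59 for elav at the same stages. At 6-8 h it was 1.71 against 0.53 for repo and pros, and 2.02 against 0.53 for elav and pros.

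For the Cpr genes alone the ratio was 1.88 against 0.66 for repo at both stages, 1.88 against 0.52 for repo and pros at 6-8 h, and 2.59 against 0.52 for elav and pros. For the Twdl genes alone it was 1.56 against 0.57 for repo at both stages and 1.5 against 0.51 for elav at both stages. Against the pros sort it was 1.56 against 0.54 for repo and 1.5 against 0.54 for elav. The pros files name another mapping directory, so sort and processing cannot be told apart in the comparisons with pros.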

How the results depend on the processing

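No count of calls, single call or sum changed direction under the alternatives run for it (for sums, 2 other scalings, every Cpr and Twdl row, no TwdlF and omitted single libraries), and the cause of each change was not tested. Counts of called cuticle genes moved as follows. The share of all rows called was counted in the main fit alone. The changes below are therefore not a result about the cuticle genes in particular. For late against early in repo-negative cells (6), protein-coding scaling gave 10, DESeq2 10, no filter 14 and leaving out the pros libraries 13. In repo-positive cells (1) these gave 2, 3, 3 and 7, and leaving out both second elav libraries at 6-8 h gave 2. In elav-positive cells (3) DESeq2, no filter and no pros libraries gave 5 each, and no second elav libraries 1. In elav-negative cells (12) the latter gave 2. For positive against negative in the elav sort at 6-8 h (1), total-count scaling and no pros libraries gave 2, and no second elav libraries 0. At 18-22 h (2), total-count scaling and DESeq2 gave 0 and no second elav libraries 1. The 2 genes called in the elav sort at 18-22 h in the main fit had no adjusted p by DESeq2. For pros (0) DESeq2 gave 2. For the stage change of the elav contrast (0), DESeq2 gave 1, no filter 2 and no pros libraries 1.

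With 1 library left out (the lone library of that group is assumed to vary like the other groups), the counts ranged from 2 to 3 (repo-negative late against early), 2 to 6 (elav-negative), 0 to 1 (repo-positive), 1 to 1 (elav-positive), 0 to 1 (elav fractions at 6-8 h), 0 to 0 (elav at 18-22 h), 0 to 2 (pros), and 0 to 0 for the repo fractions and both stage changes. The fit with a replicate block gave 0 for the elav fractions at 18-22 h and moved no other count by over 1.5 times. Of single calls, 19 stayed and 6 were lost under the block, and 17 stayed and 8 were lost with total-count scaling, which shifts the median of all rows by -0.51 to 0.68 on the log2 scale. With RLE factors or protein-coding scaling all 25 stayed.

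The late over early sum in repo-negative cells was 4.68 with total-count scaling, 4.99 with protein-coding scaling and 4.58 without TwdlF. In elav-positive cells these were 2.0, 2.43 and 2.42. The elav positive over negative ratio was 3.36 with total-count scaling and 2.37 without TwdlF at 6-8 h, and 0.76 with total-count scaling at 18-22 h. The median gene held 64.5 counts over 20 libraries. Depth and the spread between 2 libraries per group were not separated as limits on the calls.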
